A study of Mus musculus with 12 samples.

Results

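The subunits of Polycomb repressive complex 2 (PRC2) were followed in c-Kit+ bone marrow cells of mice in which Ezh2, the gene of its main enzyme, was deleted, oncogenic NRas was switched on, or both. The set was listed by name and holds 10 of the 27998 genes in the count tables, namely the enzymes Ezh2 and Ezh1, the core partners Eed, Suz12, Rbbp4 and Rbbp7, and the accessory subunits Jarid2, Aebp2, Mtf2 and Phf19. All 10 passed the low-count filter that left 12848 genes for testing over all cells of a library.

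PRC2 methylates lysine 27 of histone H3, a mark of repressed developmental genes, through EZH2 or, with weaker activity, its relative EZH1. EED and SUZ12 hold the catalytic core together, RBBP4 and RBBP7 are near-identical histone chaperones, and the accessory proteins steer the complex to chromatin in alternative forms, one with JARID2 and AEBP2 and the other with a Polycomb-like protein such as MTF2 or PHF19. In blood formation Ezh2 is abundant in dividing progenitors and immature lymphocytes, and its loss-of-function mutations recur in myeloid malignancies.

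The mice were on a C57BL/6 background, and all of them, the controls included, were injected with pIpC, which triggers interferon. The labels give an age of 8 to 12 weeks, while the study's methods name a younger age for the injections. Mice whose marrow was taken 4 months after the injections were older than 12 weeks, so the label age cannot be the age at harvest of every library. WT mice lacked Mx1-Cre, E2-KO mice were Mx1-Cre+;Ezh2 f/f, G12D mice were Mx1-Cre+;NRas G12D+/- and G12D/E2-KO mice were Mx1-Cre+;NRas G12D+/-;Ezh2 f/f. Marrow was taken when 2 weeks (T1), 2 months (T2) or, for T3, 4 months had passed since the injections, c-Kit+ cells were enriched with magnets, and 10x 3′ libraries were made, giving 1 library per genotype and time, 12 in all and 3 per genotype. Mx1-Cre is driven by an interferon-responsive promoter that is active in blood cells and in other tissues, and WT differed from the mutants in the presence of Cre too. How many animals went into a library and which exons of Ezh2 were floxed are not given in the sources used here, so a 3′ tag of Ezh2 may lie outside the deleted part and counts transcripts that remain rather than excision. The 3 libraries of a genotype are its 3 time points. The p-values of the gene tests below rest on the spread between all 12 libraries that is left after genotype and time point. Those of the paired shares rest on the differences within 6 pairs of libraries.

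The libraries held 12636998 to 23646292 unique molecular identifiers (UMIs, each a counted transcript) in 2350 to 3767 cells, with medians of 3780.5 to 6975.5 UMIs per cell. Of the 5648 cells deposited for G12D T1, 2896 (51.3%) had a counterpart in G12D/E2-KO T1, 1494 of them equal in every gene, so these cells were counted in G12D/E2-KO T1 only and 2752 were left in G12D T1. The match made up 95.1% of G12D/E2-KO T1, and no cell matched in the 65 other pairs of libraries. Kit, the gene of the sorted marker, was at 43.6 to 80.8 CPM, the UMIs of the gene per 1000000 UMIs of the library. Xist was present only in the T3 libraries of WT, E2-KO and G12D, so the sex of the animals and the time cannot be told apart except in G12D/E2-KO. At T3, G12D/E2-KO (Xist at 0.13 CPM) was compared with WT and G12D libraries that held Xist (1300 and 1360 CPM). The time point in the fit does not account for this difference. Placed by the nearest WT cell, cells similar to late granulocytes made up 10.9 to 15.4% of E2-KO libraries, 28.8 to 36.4% of WT, 33.0 to 37.2% of G12D and 14.8 to 39.1% of G12D/E2-KO. Placed by their own markers alone, they made up 7.71 to 13.3%, 26.8 to 35.4%, 17.7 to 22.1% and 12.8 to 25.7%, so G12D then lay below WT, and over all classes 73.8% of cells were placed alike. Of the cells placed as late granulocytes in G12D, 38.1 to 44.8% had their highest marker score for T and NK cells (0.976 to 2.49% in WT). The share was 28.5% in G12D/E2-KO T1, 19.4% in E2-KO T2 and 1.57 to 5.53% in the other libraries of these genotypes. In the late granulocyte class Cd3d stood at 163 to 173 CPM in G12D, 96.5 in G12D/E2-KO T1, 66.6 in E2-KO T2 and 2.29 to 5.76 CPM in WT. Cd3e had 0 UMIs there in all 12 libraries. S100a8, a marker of late granulocytes, was at 95100 CPM in that class of G12D/E2-KO T3 and at 131000 to 190000 CPM in the other libraries. Levels over all cells mix such shares with levels per cell, and in these sums fewer cells of a type and less RNA per cell cannot be told apart.

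Of the 10 subunits, Ezh2 had the largest log2 differences over all cells in the 3 comparisons that involve its deletion. The gene (ENSMUSG00000029687.16) lies on the minus strand of chr6:47530139-47595341 in GRCm38. In WT, Ezh2 stood at 133, 103 and 103 CPM at T1, T2 and T3, and G12D libraries held 86.3, 103 and 81.7 CPM. In E2-KO it was at 27.7, 27.9 and 34.6 CPM, and in G12D/E2-KO at 20.7, 25.3 and 22.4 CPM. Every library with the floxed allele lay below every library without it, and the highest G12D library, at T2, stood at the level of the lowest WT libraries. The genotype means were 113 ± 17.1 CPM in WT, 90.3 ± 11.1 in G12D, 30.1 ± 3.90 in E2-KO and 22.8 ± 2.31 in G12D/E2-KO (SD, n = 3 libraries each).

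In edgeR's quasi-likelihood test with Benjamini-Hochberg adjustment over all genes, Ezh2 fell by 1.92 on the log2 scale in E2-KO against WT (SE 0.17, adjusted p = 0.000357). It fell by 2.36 in G12D/E2-KO against WT (SE 0.17, adjusted p = 0.000115) and by 2.07 in G12D/E2-KO against G12D (SE 0.17, adjusted p = 0.000167). Without the 2 T1 libraries that shared cells, the Ezh2 difference of G12D/E2-KO was -2.35 from WT (adjusted p = 0.00424) and -2.10 from G12D (adjusted p = 0.00984). In G12D against WT the log2 difference of Ezh2 was -0.29 (SE 0.16, adjusted p = 0.493), which did not pass. Whether the loss of Ezh2 transcripts differed with oncogenic NRas was asked with the interaction term, which was -0.16 for Ezh2 (SE 0.23, adjusted p = 1). Against WT of the same time, E2-KO kept 20.9%, 27% and 33.6% of the Ezh2 CPM at T1, T2 and T3, and against G12D the G12D/E2-KO libraries kept 24.0%, 24.6% and 27.4%. Ezh2 transcripts were reduced and not absent, with 346 to 602 UMIs in each library of the floxed genotypes.

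**Figure D1:**
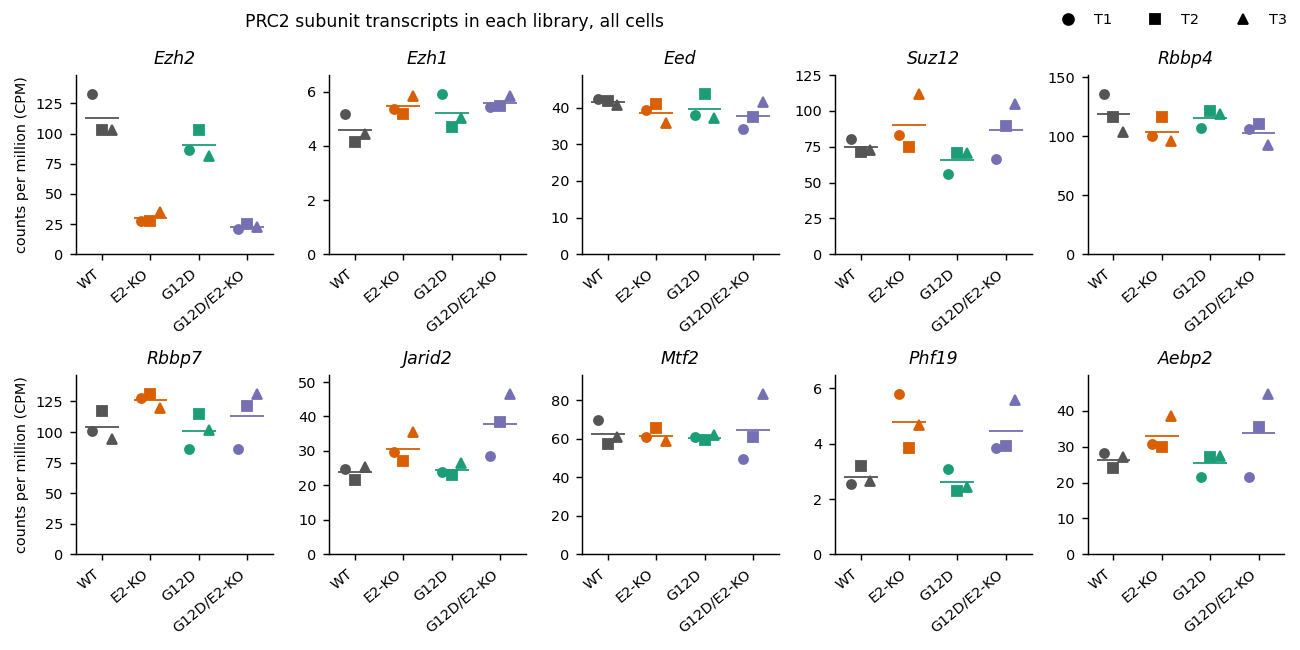
Each panel plots 1 of the 10 subunits, with CPM on the y axis from 0 and the 4 genotypes on the x axis. Circles, squares and triangles are the T1, T2 and T3 libraries and the bar is the genotype mean; Ezh2 lies between 20.7 and 34.6 CPM in the libraries with the floxed allele and between 81.7 and 133 CPM in the others.

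The promoter of Ezh2, whose transcripts depend on the floxed allele, is shown with those of Jarid2 and Phf19, accessory genes that passed a test below. Rbbp4, which passed within a class of cells, is not shown. The sequences are from RefSeq on GRCm38.p6, read 5′ to 3′ along the gene's strand. Each stretch is the part, outside annotated UTRs, of the 250 bases before the first RefSeq start listed for the gene. The GENCODE gene spans given here can begin further upstream, so the stretches of Ezh2 and Jarid2 lie inside those spans. Capitals mark a CCAAT box (CCAAT or, on the other strand, ATTGG) or an E2F-type word (TTTCCCGC, TTTCGCGC, TTTGCCGC or TTTGGCGC, or their reverse complements), and no match of one overlaps a match of the other in the stretches shown. The Ezh2 stretch, before that 1 RefSeq start, is chr6:47595059-47595183, minus strand, with 2 CCAAT boxes.
Ezh2: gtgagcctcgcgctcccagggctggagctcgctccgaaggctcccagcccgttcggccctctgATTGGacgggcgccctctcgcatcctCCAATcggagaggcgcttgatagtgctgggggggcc
A CCAAT box stood in the 250 bases upstream of at least 1 RefSeq start of 7 of the 10 subunit genes (Aebp2, Ezh2, Jarid2, Mtf2, Rbbp4, Rbbp7 and Suz12), beside 37.5% of 27025 genes with such a window. An E2F-type word stood upstream of 2 of the 10, Phf19 and Suz12, beside 2.16% of genes. The median GC content of the subunits' windows was 64.2%, against 52.4% over all windows. These are matches of letters and were not tested as binding sites.

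A reduction was also seen when single cells were counted in place of sums. It uses the same UMIs and is no independent result. Each cell was thinned to 2000 UMIs, which left out 216 cells of E2-KO T3, 367 of G12D/E2-KO T2, 132 of G12D/E2-KO T3 and 32 of G12D T3. An Ezh2 UMI was then found in 20.4%, 16.6% and 14.7% of WT cells and in 13%, 15.8% and 12.5% of G12D cells at T1, T2 and T3. The shares were 5.77%, 6.49% and 6.75% in E2-KO and 3.52%, 4.97% and 3.94% in G12D/E2-KO. Each library with the floxed allele was below its partner of the same time and NRas status, by a mean of -10.3 percentage points (SD 2.40 over 6 pairs, lower in 6 of 6), and the exact two-sided sign-flip test gave p = 0.03125, the smallest that 6 pairs allow. Without thinning, the shares ran from 43.8 to 47.0% in WT, 33.7 to 40% in G12D, 14.5 to 18.2% in E2-KO and 11.4 to 12.8% in G12D/E2-KO. No class of cells here is known to lack Ezh2, so the share that free RNA alone would give was not measured.

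To ask where in the hierarchy Ezh2 was lost, cells were placed in classes by clusters of WT cells named from marker genes and, for the mutants, by the nearest WT cell. Of 12 classes, 9 held enough cells in every library for a test. They resembled stem and multipotent progenitors (HSC/MPP), megakaryocyte-erythroid progenitors (MEP), megakaryocytes (Meg), early and late erythroid cells (EryP/early Ery, late Ery), basophils and mast cells (baso/mast), progenitors of granulocytes and macrophages together with the first granulocytic cells (GMP/early GN), promonocytes (ProMo) and late granulocytes (late GN). Each name below is short for cells that resemble the type.

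Ezh2 fell in 9 of 9 classes in E2-KO against WT, in G12D/E2-KO against WT and in G12D/E2-KO against G12D. In the EryP/early Ery-like class, where WT levels of Ezh2 were highest among the 9 tested classes, the libraries held 141, 142 and 138 CPM in WT, 29.3, 29.1 and 35.6 in E2-KO, 137, 148 and 134 in G12D and 34.8, 30.3 and 27.9 in G12D/E2-KO. In the late GN-like class, where they were lowest among the 9, the values were 50.9, 57.3 and 46.7 CPM in WT, 10.0, 15 and 8.99 in E2-KO, 48.5, 50.4 and 38.1 in G12D and 11, 14.3 and 24.4 in G12D/E2-KO. In neither class did libraries with and without the floxed allele overlap. With cells placed by markers alone, Ezh2 in late GN-like cells differed by -2.23, -2.07 and -1.99 on the log2 scale in E2-KO against WT and in G12D/E2-KO against WT and G12D. The log2 fold changes of Ezh2 ranged from -2.41 to -1.36 in E2-KO against WT, from -2.44 to -1.39 in G12D/E2-KO against WT and from -2.37 to -1.46 in G12D/E2-KO against G12D, with the ProMo-like class at the lower and the late Ery-like class at the upper end each time. Without the 2 T1 libraries that shared cells, the calls over subunits and classes numbered 8, 9 and 8 in these comparisons. In G12D against WT the log2 differences of Ezh2 ran from -0.24 in the late GN-like class to 0.39 in the baso/mast-like class, with a smallest adjusted p of 0.972. The difference of the Ezh2 fold changes between classes was not tested.

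Over the 6 pairs of libraries, the Ezh2 level that remained had a median of 19.5% of the partner's in the ProMo-like class and 31.9% in the MEP-like class, with the other 7 classes between them. The highest single value was 64.2%, in late GN-like cells of G12D/E2-KO T3 against G12D T3, while the other pairs of that class lay at 19.2 to 28.3%. That value rests on 31 Ezh2 UMIs in G12D/E2-KO T3 and 146 in G12D T3. S100a8 was at 95100 CPM in this class of G12D/E2-KO T3 and at 155000 CPM in G12D T3, and whether unlike cells play a part was not tested. The B lymphoid-like class was too small in some libraries to test and had the highest Ezh2 levels measured. There Ezh2 was at 408 and 385 CPM in WT T1 and T2, at 420, 277 and 283 CPM in G12D, at 77.3, 74.2 and 83.2 CPM in E2-KO and at 72.4 and 91.5 CPM in G12D/E2-KO T1 and T2. With these few libraries, the values are given without a test. Among the tested classes, the calls for the MEP-like, baso/mast-like and late Ery-like cells, which rest on 65, 37 and 270 Ezh2 UMIs in the floxed genotypes, were lost in some settings, with E2-KO T1, E2-KO T2, WT T1, WT T2, WT T3, G12D T1, G12D T2, G12D T3, G12D/E2-KO T1 and G12D/E2-KO T2 as the libraries that ended at least 1 of them when left out. The log2 fold changes of Ezh2 in those classes then lay between -2.54 and -1.05.

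**Figure D2:**
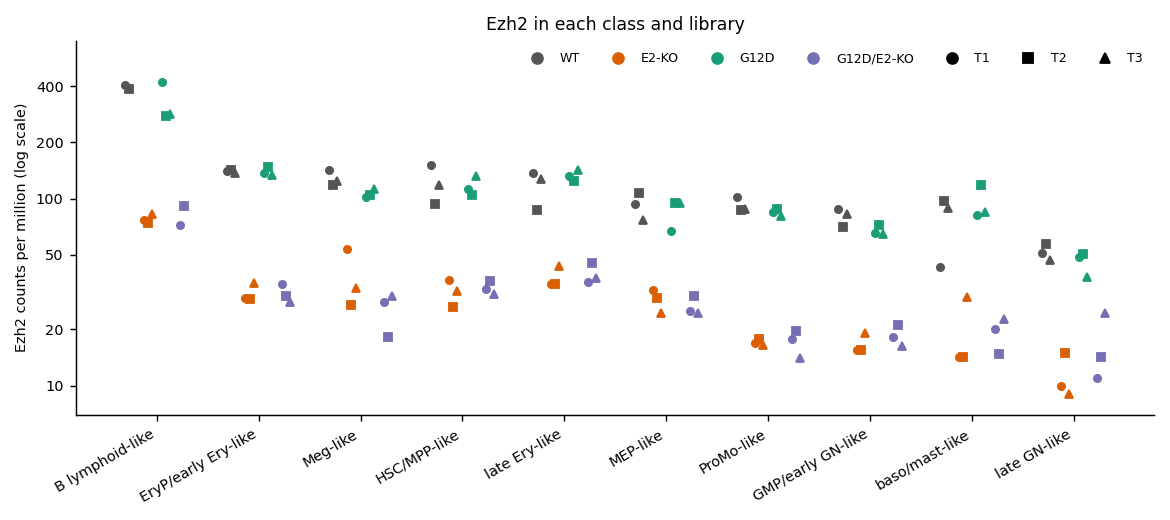
Ezh2 levels in CPM (y axis, log scale) are plotted for each class (x axis) and library, with colours for the 4 genotypes and circles, squares and triangles for T1, T2 and T3. Libraries with the floxed allele lie under those without it in each of the 9 tested classes and in the B lymphoid-like class, where WT reached 408 CPM.

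Ezh1, the alternative enzyme, did not pass the test in any comparison. It stood at 5.17, 4.14 and 4.46 CPM in WT and at 5.37, 5.19 and 5.86 CPM in E2-KO. In G12D it was at 5.93, 4.72 and 5.05 CPM, and in G12D/E2-KO at 5.43, 5.49 and 5.83 CPM. G12D overlapped the other genotypes, and E2-KO and G12D/E2-KO lay just above WT. The log2 difference of Ezh1 was 0.24 in E2-KO against WT (SE 0.17, adjusted p = 0.503) and 0.01 in G12D/E2-KO against G12D (SE 0.17, adjusted p = 0.989).

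The share of Ezh1 among the UMIs of both enzymes is another reading of the fall of Ezh2, since the Ezh1 level lay between 4.14 and 5.93 CPM throughout, and is no independent result. Ezh1 made up 3.75%, 3.85% and 4.15% of the UMIs of both genes in WT and 6.43%, 4.39% and 5.82% in G12D. Its share was 16.2%, 15.7% and 14.5% in E2-KO and 20.8%, 17.9% and 20.6% in G12D/E2-KO. The lowest share with the floxed allele, 14.5% in E2-KO T3, had a 95% Wilson interval of 11.7 to 17.8%, and the highest without it, 6.43% in G12D T1, one of 5.39 to 7.65%, intervals that cover counting error only. Over the 6 pairs the Ezh1 share was higher in 6 of 6, by a mean of 12.9 percentage points (SD 1.68), and the exact two-sided sign-flip test gave p = 0.03125, the smallest it can give. With the cells as deposited, shared ones included, the mean difference was 12.3 points. The share counts UMIs and is not divided by transcript length. By class, the pooled Ezh1 share ran from 2.40% (Meg-like) to 11.3% (baso/mast-like) in WT and from 11.4% (Meg-like) to 31.0% (MEP-like) in E2-KO, the highest from 13 Ezh1 and 29 Ezh2 UMIs.

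**Figure D3:**
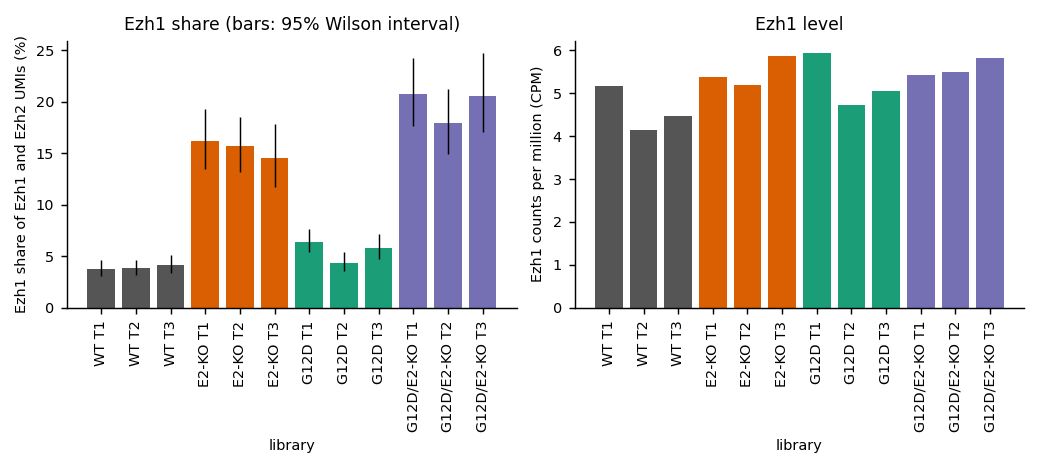
The left panel shows the Ezh1 share of all Ezh1 and Ezh2 UMIs (%) in each of the 12 libraries with 95% Wilson intervals as bars, and the right panel the Ezh1 level in CPM, both from 0. The share is 14.5 to 20.8% in the libraries with the floxed allele and 3.75 to 6.43% in the others, while the Ezh1 level lies between 4.14 and 5.93 CPM throughout.

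Of the 10 subunits, 1 passed the test over all cells in E2-KO against WT, Ezh2 itself, where 1.59% of all genes tested were called. In G12D/E2-KO against WT, 2 passed, Ezh2 and Jarid2, beside 5.69% of all genes, and in G12D/E2-KO against G12D 1 passed, Ezh2, beside 1.36%. In G12D against WT 0 of 10 passed by edgeR, with 0 at an unadjusted p under 0.05 and 0 by DESeq2, beside 0.109% of genes called. For the interaction 0 of 10 passed by edgeR, with 0 at an unadjusted p under 0.05 and 0 by DESeq2, beside 0.0934% of genes called. The median log2 fold change of the 10 was 0.24 in E2-KO against WT, 0.09 in G12D/E2-KO against WT and 0.03 in G12D/E2-KO against G12D, where the medians over all genes were 0.004, 0.012 and -0.003. Within the 9 classes, where 78 tests of a subunit in a class were possible, 9 passed in E2-KO against WT, all of them Ezh2, beside 1.25% of all such tests over genes. In G12D/E2-KO against WT 11 passed, beside 2.28%, of which 9 were Ezh2 and the others Phf19 in late GN-like and Rbbp4 in ProMo-like cells. In G12D/E2-KO against G12D 9 passed, again all Ezh2, beside 1.56%. In G12D against WT 0 of 78 passed by edgeR, 3 had an unadjusted p under 0.05 and 0 passed by DESeq2, beside 0.128% of tests called.

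A contrast chosen after the data were seen, the mean of both deletion effects (E2-KO relative to WT, and G12D/E2-KO relative to G12D), used all 12 libraries and called 3 of the 10 subunits, beside 6.9% of all genes. Ezh2 fell in it by 1.99 on the log2 scale (SE 0.12, adjusted p = 7.32e-06), and Jarid2 and Phf19 rose. The median log2 change of the 10 was 0.14, against 0.006 over all genes.

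**Figure D4:**
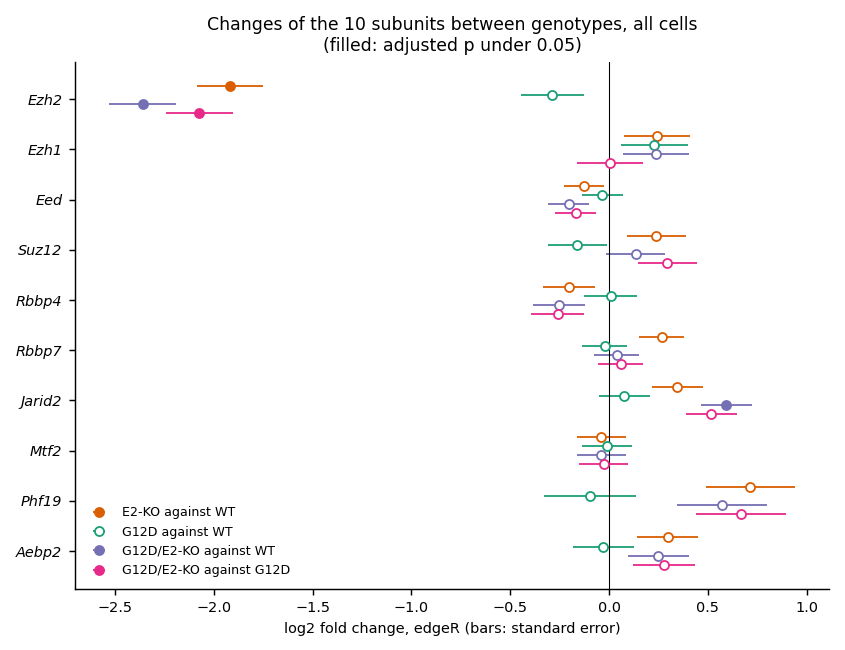
The log2 fold changes over all cells (x axis, bars are standard errors) of the 10 subunits (y axis) are shown for 4 comparisons of genotypes, with filled points where the adjusted p of edgeR was under 0.05. The filled points are Ezh2 in the 3 comparisons that involve its deletion, at -1.92, -2.36 and -2.07, and Jarid2 in G12D/E2-KO against WT, at 0.59.

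Jarid2, which links PRC2 to nucleosomes that carry ubiquitinated histone H2A, was the accessory subunit that passed in a single comparison of genotypes. It was at 24.7, 21.5 and 25.3 CPM in WT and at 28.6, 38.4 and 46.5 CPM in G12D/E2-KO. G12D held 24.0, 22.9 and 26.4 CPM and E2-KO 29.6, 27 and 35.4 CPM. All libraries with the floxed allele lay above all libraries without it, and the share of all genes that separate so was not counted. Jarid2 was highest in G12D/E2-KO T3, G12D/E2-KO T2 and E2-KO T3, which had the lowest median UMIs per cell (5133, 4186 and 3780.5). Suz12 and Aebp2 were highest in these libraries too. Meg-like cells, the WT class highest in Jarid2, made up 9.78% of G12D/E2-KO T3 and 2.21 to 4.02% of WT libraries. The part of depth and cell mix in the Jarid2 levels was not tested. Jarid2 rose by 0.59 on the log2 scale in G12D/E2-KO against WT (SE 0.13, adjusted p = 0.0294), while the difference was 0.52 against G12D (SE 0.13, adjusted p = 0.0844) and 0.34 in E2-KO against WT (SE 0.13, adjusted p = 0.222). In the mean of both deletion effects the rise was 0.43 (SE 0.09, adjusted p = 0.0182), a call that was lost when WT T2, WT T3, E2-KO T1, G12D T2, G12D T3 or G12D/E2-KO T2 was left out (log2 changes of 0.36 to 0.47 over all removals). The call against WT was lost without the replicate block (adjusted p = 0.0517), without the 2 T1 libraries that shared cells (adjusted p = 0.0558), and when WT T1, WT T2, WT T3, E2-KO T1 or G12D/E2-KO T2 was left out, with log2 changes of 0.47 to 0.70 over all single-library removals.

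Within classes, the Jarid2 difference was above 0 in 8 of the 8 classes tested in G12D/E2-KO against WT, from 0.43 to 0.65, and in 8 of 8 against G12D, from 0.26 to 0.98, and the smallest adjusted p against WT was 0.0804 in the GMP/early GN-like class. In E2-KO against WT it was above 0 in 7 of 8, from -0.31 in the HSC/MPP-like class to 0.75 in the MEP-like class, with a smallest adjusted p of 0.123. Since the classes are parts of the same libraries, these counts of classes are not independent. Jarid2 lies on chr13:44729474-44921643, plus strand. The 250 bases before the first of its RefSeq starts, chr13:44730524-44730773, lie within that span, hold 1 CCAAT box and are shown because Jarid2 passed the test. The window of its other RefSeq start holds 0.
Jarid2: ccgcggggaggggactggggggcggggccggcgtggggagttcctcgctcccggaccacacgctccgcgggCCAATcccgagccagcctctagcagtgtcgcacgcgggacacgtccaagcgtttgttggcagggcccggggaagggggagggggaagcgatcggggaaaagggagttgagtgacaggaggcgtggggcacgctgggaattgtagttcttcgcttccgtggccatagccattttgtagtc
The level of Jarid2 in Meg-like cells of WT was the highest of the 9 classes, and the Meg-like difference of G12D/E2-KO from WT was 0.43 (SE 0.28, adjusted p = 0.726).

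Phf19, a Polycomb-like protein that reads methylated lysine 36 of histone H3, was counted at low levels. WT libraries held 2.55, 3.21 and 2.66 CPM and G12D libraries 3.09, 2.28 and 2.43 CPM. E2-KO was at 5.79, 3.85 and 4.67 CPM and G12D/E2-KO at 3.86, 3.93 and 5.57 CPM. All 6 libraries with the floxed allele were above the 6 without it, by the smallest margin between E2-KO T2 and WT T2. How large a share of all genes separates in this way was not counted. The log2 difference of Phf19 was 0.71 in E2-KO against WT (SE 0.23, adjusted p = 0.156), 0.57 in G12D/E2-KO against WT (SE 0.23, adjusted p = 0.139) and 0.67 in G12D/E2-KO against G12D (SE 0.23, adjusted p = 0.211), none past the threshold.

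In the mean of both deletion effects Phf19 rose by 0.69 (SE 0.16, adjusted p = 0.0274). That call was lost when WT T1, WT T3, E2-KO T1, E2-KO T3, G12D T1, G12D T2, G12D T3 or G12D/E2-KO T2 was left out (log2 changes of 0.60 to 0.81 over all removals), and with the cells as deposited (adjusted p = 0.0598). In the late GN-like class Phf19 rose by 1.88 in G12D/E2-KO against WT (SE 0.47, adjusted p = 0.0251), from 1.21, 0.917 and 1.59 CPM in WT to 3.98, 3.06 and 13.4 CPM. These levels of Phf19 rest on 4, 4 and 7 UMIs in WT and on 26, 9 and 17 UMIs in G12D/E2-KO, and the call was lost without WT T1, WT T2, WT T3, G12D/E2-KO T2 or G12D/E2-KO T3, without the replicate block (adjusted p = 0.0552) and by DESeq2 (adjusted p = 0.0768). With cells placed by markers alone, Phf19 did not pass the low-count filter in this class. Phf19 lies on chr2:34893757-34914026, minus strand, and the stretch before its RefSeq start, chr2:34914018-34914226, carries the E2F-type word on its reverse strand.
Phf19: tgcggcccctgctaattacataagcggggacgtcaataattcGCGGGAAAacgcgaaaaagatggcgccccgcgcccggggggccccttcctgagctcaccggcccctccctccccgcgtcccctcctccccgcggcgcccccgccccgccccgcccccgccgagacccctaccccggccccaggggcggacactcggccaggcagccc

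Aebp2, the zinc finger partner of JARID2 in the same form of PRC2, and Mtf2, the Polycomb-like protein that binds CpG-rich DNA, did not pass in any comparison. Aebp2 was at 28.1, 24.0 and 27.1 CPM in WT and at 21.5, 35.4 and 44.6 CPM in G12D/E2-KO, which enclosed the WT range. E2-KO held 30.7, 29.9 and 38.4 CPM, all above WT, and G12D 21.5, 27.2 and 27.5 CPM. The log2 difference of Aebp2 was 0.30 in E2-KO against WT (SE 0.16, adjusted p = 0.377) and 0.29 in the mean of both deletion effects (SE 0.11, adjusted p = 0.132). Mtf2 ranged from 57.4 to 69.8 CPM in WT, 58.7 to 65.5 in E2-KO, 59.2 to 61.9 in G12D and 49.5 to 83.3 in G12D/E2-KO. These ranges of Mtf2 overlapped throughout, and its log2 difference was -0.03 in the mean of both deletion effects (SE 0.09, adjusted p = 0.843).

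Among the core partners, Suz12, which the complex needs for its assembly, was at 80.1, 71.6 and 73.0 CPM in WT and at 83.5, 74.9 and 112 CPM in E2-KO. In G12D it stood at 56.0, 70.5 and 70.9 CPM, and in G12D/E2-KO at 66.4, 89.5 and 105 CPM. Both floxed genotypes overlapped WT, G12D/E2-KO overlapped G12D and E2-KO lay above G12D, and the log2 difference of Suz12 was 0.24 in E2-KO against WT (SE 0.15, adjusted p = 0.459) and 0.30 in G12D/E2-KO against G12D (SE 0.15, adjusted p = 0.384). Within classes, Suz12 was above 0 in 9 of 9 in each of the 3 comparisons that involve the deletion, with no adjusted p under 0.05. The classes are parts of the same 12 libraries and the comparisons share libraries, so these counts are not independent. Eed, which binds the methyl mark, lay between 34.2 and 43.8 CPM over the 12 libraries, and its log2 difference in the mean of both deletion effects was -0.15 (SE 0.07, adjusted p = 0.228).

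Rbbp4 and Rbbp7 encode near-identical proteins, and how reads that match both genes were counted is not given in the sources used here. Rbbp7, on the X chromosome, was at 101, 117 and 94.5 CPM in WT, 128, 131 and 120 in E2-KO, 85.9, 115 and 102 in G12D and 86.1, 121 and 131 in G12D/E2-KO. E2-KO lay above WT in all 3 libraries, and the log2 difference of Rbbp7 was 0.27 (SE 0.11, adjusted p = 0.282), which did not pass. Rbbp4 ranged from 104 to 136 CPM in WT, 96.0 to 116 in E2-KO, 107 to 121 in G12D and 92.6 to 110 in G12D/E2-KO, with a log2 difference of -0.23 in the mean of both deletion effects (SE 0.09, adjusted p = 0.149). In the ProMo-like class Rbbp4 fell by 0.56 on the log2 scale in G12D/E2-KO against WT (SE 0.16, adjusted p = 0.0437), from 218, 156 and 168 CPM to 126, 123 and 129 CPM. E2-KO held 115, 138 and 97.8 CPM of Rbbp4 there and G12D 125, 167 and 149 CPM, and the call was lost when WT T1, WT T3, E2-KO T1, G12D T2 or any G12D/E2-KO library was left out (log2 changes of -0.76 to -0.40 over all removals), by DESeq2 (adjusted p = 0.0958), without the replicate block (adjusted p = 0.0736), with cells as deposited (adjusted p = 0.0559), with cells placed by markers alone (adjusted p = 0.0575) and without the 2 T1 libraries that shared cells (adjusted p = 0.17).

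Time after pIpC was compared over all genotypes, at T3 against T1. Of the 10 subunits 0 passed by edgeR, 3 had an unadjusted p under 0.05 and 0 passed by DESeq2, and of all 12848 genes 0% were called by edgeR, with 1677 at an unadjusted p under 0.05 and 21 called by DESeq2. The smallest unadjusted p belonged to Aebp2, whose log2 difference was 0.39 (SE 0.13, adjusted p = 0.365). Ezh2 differed by -0.03 (SE 0.14, adjusted p = 0.94).

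In WT cells the subunits did not share 1 order over the 9 tested classes, which is described here without a test and from the means of 3 libraries. Among these classes Ezh2 was highest in EryP/early Ery-like cells at 141 ± 2.46 CPM (SD, n = 3) and was then at 128 in Meg-like, 121 in HSC/MPP-like and 117 in late Ery-like cells. Ezh2 followed at 92.8 CPM in MEP-like, 92.5 in ProMo-like, 80.5 in GMP/early GN-like, 76.9 in baso/mast-like and 51.7 ± 5.33 in late GN-like cells. All 8 pairs of neighbours in this order overlapped, while the ends differed 2.73-fold. The summed level of 32 S phase and mitosis genes ran in another order, from 6760 CPM in late Ery-like and 3920 CPM in EryP/early Ery-like to 1590 CPM in MEP-like cells, and its part in the Ezh2 levels was not tested.

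Suz12 was also highest in EryP/early Ery-like cells (97.7 CPM, above the next class in every library) and lowest in late GN-like cells (44.8 CPM). Mtf2 (120 CPM), Aebp2 (38.8 CPM), Eed (49.4 CPM) and Phf19 (5.47 CPM) had their highest WT means in HSC/MPP-like cells and their lowest in late Ery-like cells, at 24.5, 6.79, 25.5 and 0.547 CPM. Jarid2 stood out in Meg-like cells at 63.3 CPM, with no overlap with the next class, MEP-like at 33.6 CPM. Rbbp4 (181 CPM) and Rbbp7 (152 CPM) were highest in ProMo-like cells and lowest in EryP/early Ery-like (85.7 CPM) and late GN-like cells (49.5 CPM), respectively. Ezh1 was lowest in late GN-like cells at 2.33 CPM and had its highest mean, 12.0 CPM from 7 UMIs, in baso/mast-like cells. The ratio of the highest to the lowest class was 1.94 for Eed, 2.11 for Rbbp4, 2.18 for Suz12, 3.07 for Rbbp7, 4.37 for Jarid2, 4.90 for Mtf2, 5.15 for Ezh1, 5.71 for Aebp2 and 10.0 for Phf19, the last from 15 and 2 UMIs.

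**Figure D5:**
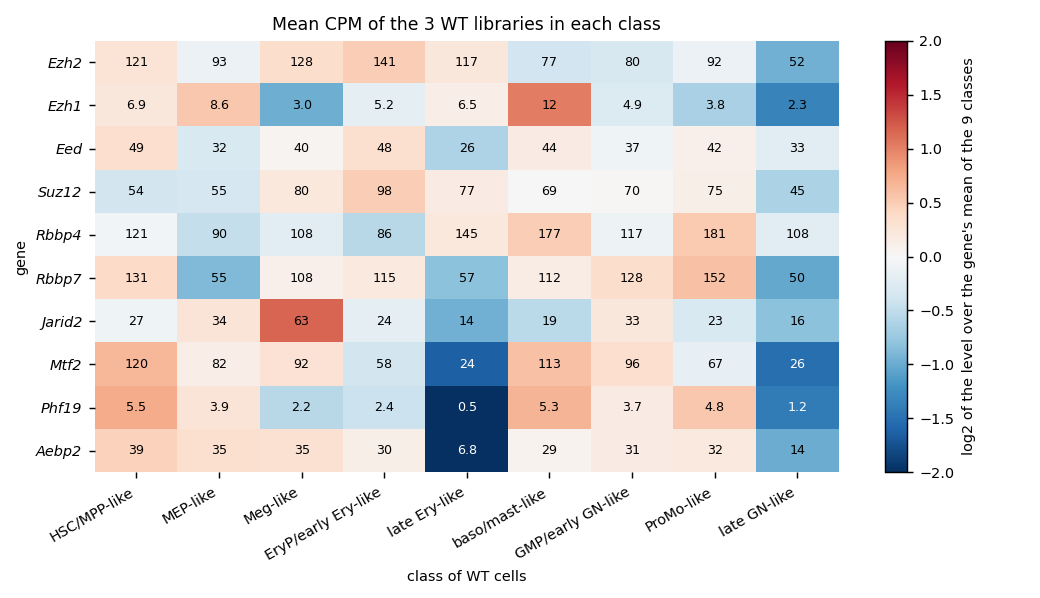
Rows are the 10 subunits, columns the 9 tested classes of WT cells, and each number is the mean CPM of the 3 WT libraries. The colour is the log2 of the level over the gene's own mean of the 9 classes, so colours compare classes within a gene only, as for Jarid2 at 63.3 CPM in Meg-like cells against 14.5 CPM in late Ery-like cells.

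Over 30 sums of WT cells by class and library, the genes whose log2 level followed Ezh2 most closely among 2373 genes with a mean of at least 50 CPM were Chchd10 (Pearson's r = 0.887), Tcf3 (0.887), Smc3 (0.871), 2310036O22Rik (0.869) and Dnajc9 (0.847). For Ezh1 they were Rab18 (0.745), Brd8 (0.714), Fam117a (0.662), Med7 (0.659) and Hscb (0.645). Of the subunits above that level, Suz12 was at rank 123 for Ezh2 (r = 0.673), Rbbp7 at 474 (0.506), Rbbp4 at 641 (0.46) and Mtf2 at 1127 (0.344). Every class with at least 20 cells in a WT library gave a sum, beyond the tested classes. B lymphoid-like cells of WT T1 and T2, where Ezh2 was highest, and macrophage-like cells of WT T1 were thus included. Ezh1 had few UMIs in many of the sums. The sums of a library share its depth and those of a class its cells, so these correlations describe likeness only.

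The partner complex PRC1, which ubiquitinates histone H2A, was looked at with a list of 21 genes. Bmi1, a gene of its core, was at 21.9, 17.3 and 19.3 CPM in WT and 15.5, 15.9 and 19.6 CPM in G12D. In E2-KO it stood at 73.1, 77.8 and 78.3 CPM and in G12D/E2-KO at 65.5, 77.6 and 91.7 CPM. The libraries with the floxed allele did not overlap those without it, and the share of all genes that separate so was not counted. Bmi1 rose by 1.96 on the log2 scale in E2-KO against WT (SE 0.12, adjusted p = 5.06e-05) and by 2.11 in G12D/E2-KO against G12D (SE 0.12, adjusted p = 2.52e-05). It was the 1 gene of the 21 past the threshold in each of the 3 comparisons that involve the deletion. Of all genes, 1.59% were called in E2-KO against WT, 5.69% in G12D/E2-KO against WT and 1.36% in G12D/E2-KO against G12D. In the mean of both deletion effects Bmi1 and Phc1 rose, by 2.03 and 0.51, and Cbx8 fell by 0.67 (adjusted p = 7.84e-07, 0.043 and 0.0236), beside 6.9% of all genes called.

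Of 5 further factors that join PRC2 in some cells, 4 were tested. Of these E130012A19Rik, the symbol used in the tables for Epop, rose by 1.45 in G12D/E2-KO against WT (SE 0.22, adjusted p = 0.00678) and by 1.02 against G12D (SE 0.22, adjusted p = 0.0488). It was the 1 gene of the 4 called there, beside 5.69% and 1.36% of all genes. Its difference in E2-KO against WT was 0.88 (SE 0.22, adjusted p = 0.0813). A list of 7 genes held Kdm6a and Kdm6b, which demethylate lysine 27 of histone H3, Bap1, which removes ubiquitin from H2A, and the BAP1 partners Asxl1, Asxl2, Foxk1 and Foxk2. They had log2 differences of -0.70 to 0.27 in E2-KO against WT (smallest adjusted p = 0.20) and of -0.28 to 0.31 in G12D/E2-KO against G12D (smallest adjusted p = 0.382).

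Genes of the cell cycle were set beside Ezh2. Of a list of 11 genes, E2f1 to E2f8 and the retinoblastoma family genes Rb1, Rbl1 and Rbl2, 1 passed in E2-KO against WT, where 1.59% of all genes were called. This was E2f7, which rose by 0.97 (SE 0.20, adjusted p = 0.0371), while its difference was 0.72 in G12D/E2-KO against WT (SE 0.20, adjusted p = 0.0555) and 0.78 against G12D (SE 0.20, adjusted p = 0.0921). Of 32 S phase and mitosis genes 1, Tyms, fell in G12D/E2-KO against WT, by 0.66 (SE 0.16, adjusted p = 0.0398), where 5.69% of all genes were called. In the mean of both deletion effects E2f7 rose by 0.88 (adjusted p = 0.00471) and Uhrf1, of the S phase and mitosis list, by 0.42 (adjusted p = 0.0432), 1 gene of each list beside 6.9% of all genes. The summed level of the 32 genes was 3290 to 3850 CPM in WT, 4030 to 4130 in E2-KO, 2910 to 3670 in G12D and 3010 to 3630 CPM in G12D/E2-KO. E2-KO lay above WT, G12D/E2-KO overlapped WT, and the part of these levels in the Ezh2 result was not tested. The 10 tested genes next to Ezh2 on each side on chromosome 6, which together span 7090 kb and reach much further on the side of lower coordinates, where both genes named here lie, included 1 that passed in E2-KO against WT (Gstk1, 0.99, SE 0.19, adjusted p = 0.0295), beside 1.59% of all genes, and 1 in G12D/E2-KO against WT (Zyx, 0.60, SE 0.13, adjusted p = 0.0308), beside 5.69%. In G12D/E2-KO against G12D these 20 genes had log2 differences of -0.46 to 0.71, with a smallest adjusted p of 0.289.

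Genes annotated on the opposite strand overlap Ezh2 (Gm26625), Suz12 (Gm26563), Rbbp4 (Sync and Gm26722), Rbbp7 (Txlng) and Mtf2 (Tmed5), and the strand setting of the counting is not given in the sources used here, so reads of these subunits and of their overlapping partners may not be told apart.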

How the data were processed

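Gene counts per cell were analysed for 12 libraries of mouse c-Kit+ bone marrow cells. Per the labels and the study's methods, the authors aligned 10x 3′ reads to mm10 with Cell Ranger, removed doublets and cells above a limit of mitochondrial reads, and deposited whole-number UMI counts per gene and cell, which are the unit used here. In the tables the highest mitochondrial share was 9.998% and the lowest total 1438 UMIs. Of 35597 deposited cells, 32701 were used, after cells found in 2 libraries were counted once (cosine of at least 0.9 between cells). The 10 members and all gene lists were chosen with earlier results of these data known.

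Counts were summed per library, or per library and class where each library had at least 20 cells, and fitted with edgeR 4.0.16 (R 4.3.3; filterByExpr, TMM, robust quasi-likelihood) with genotype and time point over all libraries. P-values were adjusted by Benjamini-Hochberg over all genes of a contrast, and over all genes of a class, with a threshold of 0.05. The time point, shared across genotypes by the labels, served as the replicate block: deviations from genotype means correlated with a median of 0.138 within a time point (18 pairs) and -0.0566 between time points (36 pairs). CPM is the UMIs of a gene per 1000000 UMIs of the library or class.

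WT cells were clustered with scanpy 1.11.5 and leidenalg 0.10.2 (1999 variable genes, none of them a member, 50 components, 15 neighbours, resolution 2). Of 29 clusters 25 were named by marker lists. Mutant cells took the class of the nearest WT cell. Doublets were not called again. Promoters came from RefSeq on GRCm38.p6 and coordinates from GENCODE on GRCm38. Likeness of patterns used log2(CPM + 5). The genes named are the 10 members, the list genes past the threshold, the 5 genes most like Ezh2 and Ezh1 and the neighbours of Ezh2 past the threshold. Paired shares were tested by exact sign-flip over 6 pairs. DESeq2 1.42.0, other scaling and filters, a fit without the block, a per-cell marker gate and removal of each library were tried. Scripts were tested on simulated data. The floxed exons, protein sequences and structures were not analysed here.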

Additional observations from a re-analysis of the deposited data

How the results depend on the processing

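Over 37 values of single genes and their 678 alternatives, 611 kept direction and side of the threshold, 67 kept the direction and no longer passed, and none reversed; for Ezh2 alone it was 540 of 565. The number of subunits past the threshold over all cells in G12D/E2-KO against WT went from 2 to 1 without the replicate block, with only the groups compared in the fit and, an alternative chosen after seeing the data, without the T1 libraries of G12D and G12D/E2-KO, because Jarid2 no longer passed. In G12D/E2-KO against G12D it went from 1 to 2 by DESeq2. Without the replicate block no other count over all cells moved. Leaving out each library in turn gave 1 to 2 subunits in each of these comparisons, 1 in E2-KO against WT, 1 to 4 for the mean of both deletion effects, and 0 for G12D against WT, the interaction and T3 against T1. Within classes it gave 7 to 9 calls in E2-KO against WT, 8 to 12 in G12D/E2-KO against WT and 8 to 10 in G12D/E2-KO against G12D. The difference in the share of cells with an Ezh2 UMI lay between -10.7 and -9.38 percentage points and that in the Ezh1 share between 12.5 and 13.4, with p = 0.0625 by the exact sign-flip test each time, the smallest that 5 pairs allow. With the cells as deposited, Ezh2 in late Ery-like cells differed by -1.11 on the log2 scale in G12D/E2-KO against G12D (adjusted p = 0.52). The causes were not tested. Depth limits Phf19 and Ezh1, with few UMIs per class, and the MEP-like and baso/mast-like cells.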
